A study of Mastomys natalensis with 3 samples.

Results

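Transcripts for the mitochondrial respiratory chain and ATP synthase were followed across 3 arrays, through the probe sets that carry the names of their subunits. A probe set was a member when the platform annotation gave it exactly 1 gene symbol and that symbol began with Nduf, Uqcr, Atp5 or Cox followed by a digit, or was Sdha, Sdhb, Sdhc, Sdhd, Cyc1 or Cycs. The rule used names and no measured value. It took 101 probe sets of 55 genes, out of 8740 non-control probe sets of which 7006 carry 1 symbol. Complex I had 43 of these probe sets for 25 genes, complex III 7 for 4 genes, complex IV 27 for 13 genes and ATP synthase 17 for 10 genes. Complex II was represented by 1 probe set, that of Sdha. The other 6 probe sets belonged to Ndufa4, which has a complex I name but is also known as a subunit of complex IV, and to its relative Ndufa4l2, so this pair was kept apart. No singly named probe set was found for Sdhb, Sdhc, Sdhd or Cycs, which are not analysed here under the rule.

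RNA came from the stomach of Mastomys natalensis, a rodent known for spontaneous gastric carcinoids, and was hybridised to a rat Affymetrix array. Per the labels, all 3 samples were gastric mucosal cells enriched for enterochromaffin-like (ECL) cells, the endocrine cells that release histamine to drive acid secretion. The first sample came from animals given loxtidine, a blocker of the histamine H2 receptor, for 8 weeks, and the second from animals given it for 16 weeks. The third came from animals with a spontaneous gastric ECL cell carcinoid and names no treatment. The sources used here give no genotype, age or sex and no number of animals behind a sample, and no untreated array was among the samples. Each group had 1 array, so no value below has a replicate error, and no test or p-value is given.

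The respiratory chain passes electrons from NADH (at complex I) or succinate (at complex II) through complex III and cytochrome c to oxygen at complex IV. Complexes I, III and IV pump protons out of the mitochondrial matrix, and ATP synthase lets them flow back to make ATP. In the stomach the acid-secreting parietal cell is known for its very dense mitochondria, which feed its proton pump. All of the members are nuclear genes, apart from the pseudogene entry Cox6c-ps1. In complexes I, III and IV and in ATP synthase, the subunits they encode join others made inside the mitochondrion.

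The arrays differed in overall brightness and in signs of RNA quality. Their median deposited intensity was 10.2 (8 weeks), 13.1 (16 weeks) and 13.9 (carcinoid), so the 3 arrays were quantile normalized together, and all intensities below are normalized unless named as deposited. The ratio of the 3' to the 5' control probe set was 8.95, 1.43 and 2.31 for GAPDH and 16.1, 6.71 and 11.7 for beta-actin, which was highest at 8 weeks for both. Each array carried a lot label of its own, and the labels' source was ECL cells at 8 weeks but gastric mucosa at 16 weeks and for the carcinoid, so lot, source and group cannot be told apart. Of the ECL cell marker list, 8 of 10 genes had a singly named probe set and 5 reached the floor defined below on at least 1 array. The histamine-making enzyme Hdc, which defines the ECL cell, lay below that floor on every array, at 4.42, 4.78 and 3.21 for 8 weeks, 16 weeks and carcinoid. Vesicle amine transporter Slc18a2, which loads histamine into granules, read 21.8, 42.3 and 23.2 on its brighter probe set.

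A floor of 12.4, the pooled median of the normalized values, marks the level under which a value was not used as a measurement. Of the 101 members, 66 (65.3%) reached it on all 3 arrays, against 30.5% of all non-control probe sets. Another 15 reached it on 1 array, 10 on 2 arrays and 10 on none, and 54 of the 55 genes reached it on at least 1 array. The exception was Ndufs1, the large iron-sulfur subunit of complex I, at 11.2, 2.74 and 3.02. By array, 74 members were at or above the floor at 8 weeks, 78 at 16 weeks and 81 on the carcinoid array. A fold is given where both arrays reached the floor, and a bound ("at least") where only 1 did. In what follows, values come in the order 8 weeks, 16 weeks, carcinoid. In such bulk RNA, fewer cells rich in mitochondria and less of these transcripts per cell cannot be told apart. Because rat probes met Mastomys RNA, each fold compares a probe set only with itself across arrays. Floor counts, shares of signal, sums and brightness bands do set different probe sets beside each other. The effect of the species difference on those was not tested.

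The comparison of 16 with 8 weeks asks how these transcripts differ with longer receptor blockade. After quantile normalization, members differed in both directions in like numbers. Both arrays measured 68 members. Of these, 5 (7.35%) lay 2-fold or more above their 8-week value, as did 10.8% of all probe sets, and 7 (10.3%) lay 2-fold or more below it, against 9.89% of all. Their median log2 difference was -0.04, and that of all probe sets was -0.01. A further 5 members had a bound of at least 2-fold higher and 3 of at least 2-fold lower. Both shares lay near or below those of the whole array.

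Set against the 8-week array, the spontaneous carcinoid had lower normalized values for most members, while as deposited 45 of 67 were higher there, as most probe sets of that brighter array were. Of 67 measured on both arrays, 45 were lower and 22 higher, with a median log2 difference of -0.45, against -0.04 over all 3122 probe sets measured there. At least 2-fold lower were 12 (17.9%), with 11.3% of all probe sets, and at least 2-fold higher 4 (5.97%), with 11.8% of all. Bounds of at least 2-fold went up for 5 members and down for 5. The carcinoid and 16-week arrays were closer. Of 73 members, 10 (13.7%) were at least 2-fold lower on the carcinoid array, against 6.28% of all, and 3 (4.11%) at least 2-fold higher, against 6.98%, with a median of -0.10 (all probe sets, 0.01). Bounds of at least 2-fold went up for 1 member here and down for 4. The comparisons with 8 weeks share the 8-week array, and each array enters more than 1 comparison.

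The sign of these medians depends on the scaling, since the carcinoid array was brighter as deposited. Without normalization, the members' median for carcinoid against 8 weeks was 0.23, while that of all probe sets was 0.45, and 14 members were at least 2-fold higher and 2 at least 2-fold lower (25.4% and 3.63% of all). Relative to all probe sets, the members lay lower by 0.40 on the log2 scale after quantile normalization, by 0.30 after scaling each array by its median and by 0.22 as deposited. For 16 against 8 weeks the members' distance from the median of all probe sets was -0.03, 0.07 and 0.13 under those scalings, so its sign turned. As deposited, 13 of those 68 members were at least 2-fold higher and 0 lower, where all probe sets had 19.7% and 3.97%.

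**Figure D1:**
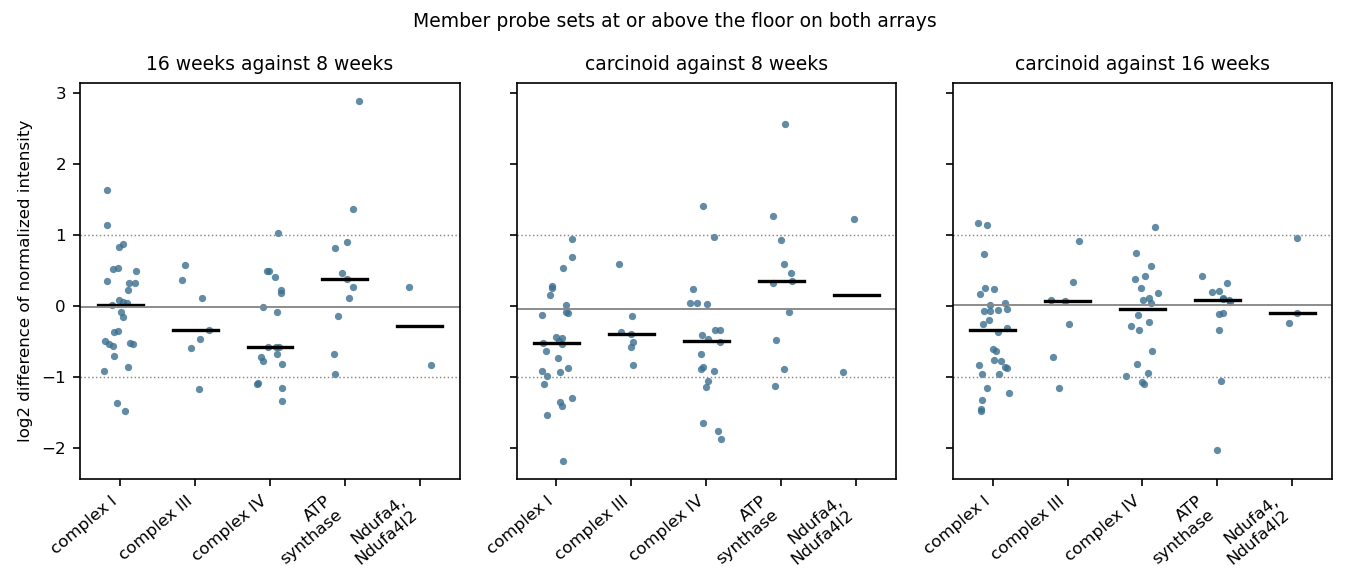
Log2 difference of normalized intensity for each member probe set at or above the floor on both arrays, by complex, in the 3 comparisons. Each point is 1 probe set, black bars are medians, the grey line is the median of all non-control probe sets and dotted lines mark 2-fold. In the middle panel the medians of complexes I, III and IV lie at -0.52, -0.40 and -0.49 and that of ATP synthase at 0.35.

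The complexes did not lie at 1 level. For carcinoid against 8 weeks, complex I had a median log2 difference of -0.52 over 27 probe sets, with 20 lower, 6 of them at least 2-fold, and none at least 2-fold higher. Complex IV had -0.49 over 20, complex III -0.40 over 7 with 6 lower, and ATP synthase 0.35 over 11 with 7 higher. For 16 against 8 weeks complex I lay at 0.02, complex III at -0.33, complex IV at -0.58 and ATP synthase at 0.38. For 16 against 8 weeks the complex IV value rests on 2 genes, Cox8a and Cox6b1: without their 6 probe sets it was -0.01. For carcinoid against 8 weeks it rests on them only in part, since it was still -0.33 without them. For carcinoid against 16 weeks complex I stood at -0.34, with 22 of 30 probe sets lower, and complexes III and IV and ATP synthase at 0.07, -0.05 and 0.08. This complex I shift lay in the probe sets whose identifier begins with rc_, at -0.60 over 23, while the other 7 stood at -0.04.

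Relative to the median of all probe sets, each of these complexes kept its side under the 3 scalings in every comparison. For carcinoid against 8 weeks, complex I lay at -0.47, -0.40 and -0.32 from that median (quantile, median scaling, as deposited), complex IV at -0.44, -0.42 and -0.36, and ATP synthase at 0.39, 0.50 and 0.58. As deposited, their own medians in that comparison were all above 0, at 0.13 for complex I, 0.23 for complex III, 0.09 for complex IV and 1.03 for ATP synthase. Without Cox8a and Cox6b1, complex IV as deposited stood at 0.57 for 16 against 8 weeks and 0.50 for carcinoid against 8 weeks. The deposited medians of all probe sets were 0.39 and 0.45, so the rest of complex IV did not stay below them on that scale. These groups are small, and no test of a difference between complexes was made.

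**Figure D2:**
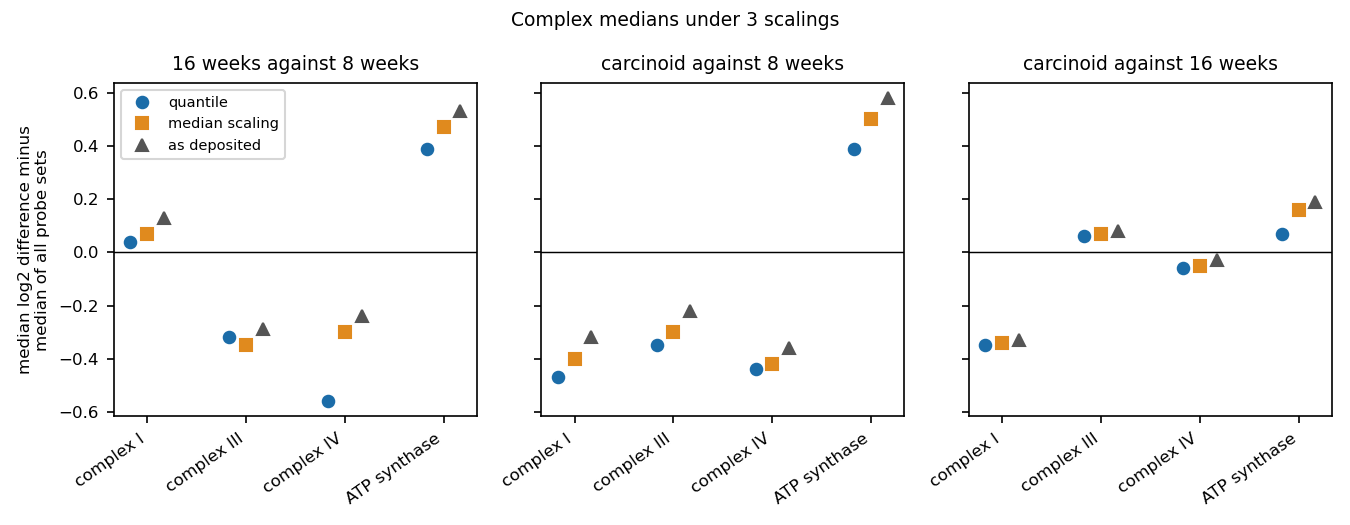
Median log2 difference of each complex minus the median of all non-control probe sets, under quantile normalization, scaling by the median and values as deposited, in the 3 comparisons. Every symbol of complex I lies below 0 in the comparisons with the carcinoid array, and every symbol of ATP synthase lies above 0 in all 3 panels.

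Among the 66 members measured on every array, the carcinoid array held the lowest value for 30 (45.5%), where it did so for 33.1% of all probe sets, and the highest for 12 (18.2%), against 33.0%. In complex I it was lowest for 16 of 27 and highest for 2. As deposited, the 8-week array was instead the lowest for 37 of the 66, as it was for 60.5% of all probe sets. A range under 2-fold across the 3 arrays was found for 40 members (60.6%), close to the 61.9% of all probe sets.

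With no replicates, the only error open to measurement is how far a gene's probe sets disagree. On the log2 scale this spread was 0.94 for 16 against 8 weeks and 0.99 for carcinoid against 8 weeks, over 15 member genes each, and to 0.61 over 17 genes for carcinoid against 16 weeks. Over all genes it was 0.79, 0.82 and 0.62. In 9 of 15, 8 of 15 and 10 of 17 of these member genes the probe sets gave differences of opposite sign. This spread is scaled to a single probe set. A 2-fold difference, 1 on the log2 scale, is thus close to it in the comparisons with 8 weeks and above it for carcinoid against 16 weeks. The 2 brightest probe sets lay more than 1 apart in 5 of 15, 5 of 15 and 4 of 17 member genes (33.3%, 33.3% and 23.5%). Over all genes this was 34.1%, 39.5% and 25.2%. Atp5po had the widest range in the comparisons with 8 weeks, 3.85 and 3.43, which weighs on the members' spread.

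**Figure D3:**
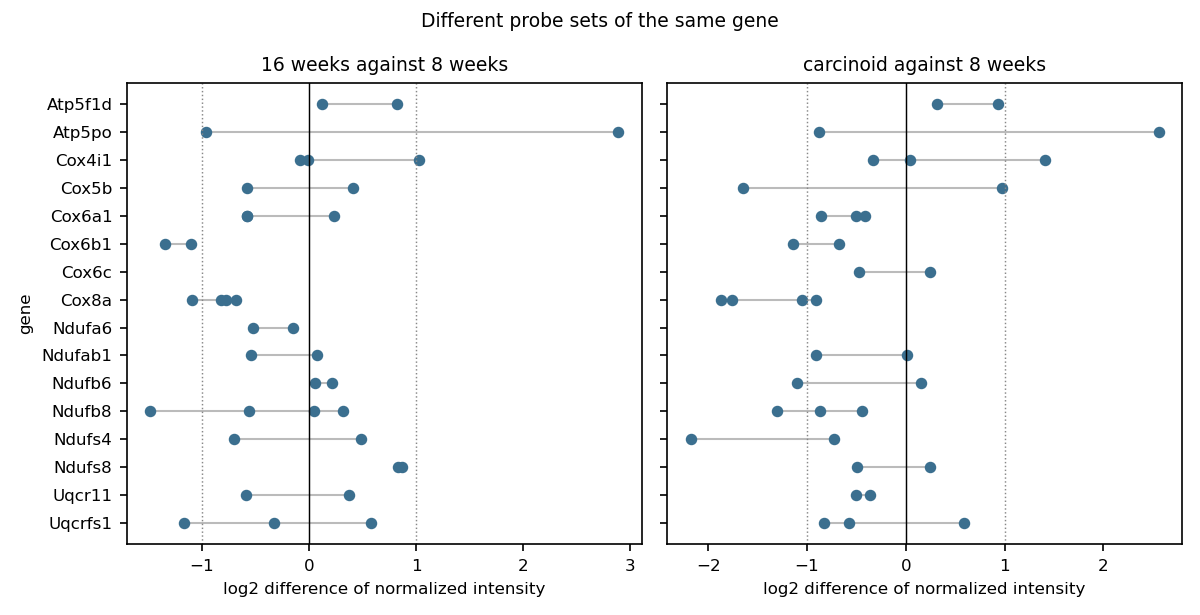
Log2 difference of normalized intensity for each probe set of the member genes with several measured probe sets, 16 against 8 weeks (left) and carcinoid against 8 weeks (right). Points joined by a line are probe sets of 1 gene and dotted lines mark 2-fold. Cox8a and Cox6b1 lie wholly below 0 in both panels, while Atp5po spans from -0.96 to 2.89 on the left and from -0.88 to 2.56 on the right.

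Complex I begins with the NADH-oxidising tip that protrudes into the matrix, where Ndufv2 and Ndufs1 hold iron-sulfur clusters. Ndufs4, an accessory subunit of this tip needed for a stable complex, gave the largest difference of complex I that was measured on both arrays. Its brightest probe set read 178, 109 and 39.2, which was 4.54-fold lower on the carcinoid array than at 8 weeks and 2.79-fold lower than at 16 weeks. A probe set made from the same sequence read 21.3, 29.9 and 12.8, 1.66-fold lower and 2.34-fold lower in the same comparisons, with a carcinoid value just above the floor. Both were therefore lowest on the carcinoid array. A dim Ndufs4 probe set from another sequence went the other way, at 2.38, 9.34 and 21.4, where only the carcinoid value reached the floor. Ndufv3, another subunit of the tip, read 198, 141 and 137 on its brighter probe set, a difference of under 2-fold in every comparison, and its other probe set stayed below the floor. Ndufs6 and Ndufv2, with 1 probe set each, also stayed within 2-fold.

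Next along the matrix arm lie the subunits that pass electrons to ubiquinone, among them the iron-sulfur proteins Ndufs7 and Ndufs8. Ndufs7 read 78.8, 54.2 and 29.8, lowest on the carcinoid array and 2.65-fold lower there than at 8 weeks. Ndufs8 was highest at 16 weeks on both of its brighter probe sets, which read 158, 289.6 and 187 on the first and 61.1, 108 and 43.4 on the second. They were 1.83-fold higher and 1.77-fold higher at 16 weeks than at 8 weeks, and 1.55-fold lower and 2.49-fold lower on the carcinoid array than at 16 weeks. Another Ndufs8 probe set, dimmer, read 1.92, 13.0 and 29.3, 2.25-fold higher on the carcinoid array than at 16 weeks, so the probe sets of this gene disagree for the carcinoid. The remaining Ndufs8 probe set did not reach the floor.

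Ndufa6 belongs to a small LYR-motif family and sits on this arm beside the mitochondrial acyl carrier protein Ndufab1. Its probe sets, from different sequences, read 217, 151 and 85.1 on the first and 70.4, 63.5 and 8.74 on the second. Both were lowest on the carcinoid array, 2.55-fold lower and at least 5.69-fold lower than at 8 weeks, and the second was at least 5.13-fold lower than at 16 weeks. Ndufab1 read 192, 132 and 103 on its brightest probe set, with the carcinoid 1.87-fold lower than 8 weeks, 39.8, 42.2 and 40.2 on the next, which hardly differed between arrays, and 6.42, 15.5 and 5.67 on a dim one that passed the floor only at 16 weeks. Ndufa5 and Ndufa9, the other subunits of this region with 1 probe set each, were lower on the carcinoid array than at 16 weeks, 1.93-fold lower and 1.52-fold lower.

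In the membrane arm, which carries the proton channels, the Ndufa3 and Ndufa8 subunits near the junction with the matrix arm were lowest at 8 weeks. Ndufa3 read 19.7, 43.4 and 38.0, 2.2-fold higher at 16 weeks than at 8 weeks. Ndufa8 read 31.3, 97.5 and 50.3, 3.12-fold higher at 16 weeks, and the carcinoid lay between the other arrays. Ndufc2, at 0.87, 24.1 and 24.7, passed the floor only at 16 weeks, at least 1.95-fold higher than at 8 weeks, and in the carcinoid, at least 2.0-fold higher. Ndufc1, which sits in the same arm, was highest at 8 weeks on its brighter probe set, 39.7, 21.1 and 20.2, while its second probe set stayed below the floor.

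The Ndufb subunits of the outer membrane arm gave several of the larger differences. Ndufb2 read 183, 172 and 62.8, with similar values under loxtidine and a carcinoid value 2.92-fold lower than at 8 weeks and 2.74-fold lower than at 16 weeks. Ndufb6 did likewise on its brighter probe set, at 132, 137 and 61.6 (2.14-fold lower and 2.22-fold lower). Its other probe set, at 60.8, 70.7 and 67.4, showed no such step, so the Ndufb6 difference rests on 1 probe set.

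Ndufb8 had 4 probe sets. The brightest read 437, 157 and 177, high at 8 weeks and 2.78-fold lower at 16 weeks and 2.47-fold lower in the carcinoid. A pair from 1 sequence read 50.05, 62.4 and 36.9 on the first and 22.9, 15.5 and 12.5 on the second, both lowest in the carcinoid, and the last read 41.3, 42.8 and 9.27, where the carcinoid was at least 3.34-fold lower than 8 weeks. All 4 were thus lower on the carcinoid array than at 8 weeks, but at 16 weeks they differed in sign.

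Ndufb11 was highest at 8 weeks on both of its probe sets, which share a sequence. They read 189, 73.5 and 122 on the first and 37.3, 2.37 and 2.17 on the second, and their 16-week values were 2.57-fold lower and at least 3.02-fold lower than those at 8 weeks. Ndufb5 gave a single value above the floor on each of its probe sets, at 16.7, 3.68 and 6.01 on the first and 2.38, 28.6 and 12.1 on the second, and these point in opposite directions. Ndufaf3, an assembly factor rather than a subunit, read 24.7, 13.6 and 29.9 on its brightest probe set, 2.2-fold higher in the carcinoid than at 16 weeks. Its second probe set read 2.70, 9.34 and 15.5, above the floor only in the carcinoid, and the last stayed below it. Ndufb1, Ndufb3, Ndufb9 and Ndufb10 have 1 probe set each and differed by less than 2-fold wherever both arrays reached the floor. The largest measured fold was at Ndufb10 (1.83-fold lower in the carcinoid than at 16 weeks). Ndufb1 was under the floor at 8 weeks, so it was at least 1.28-fold higher at 16 weeks and at least 1.08-fold higher in the carcinoid.

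**Figure D4:**
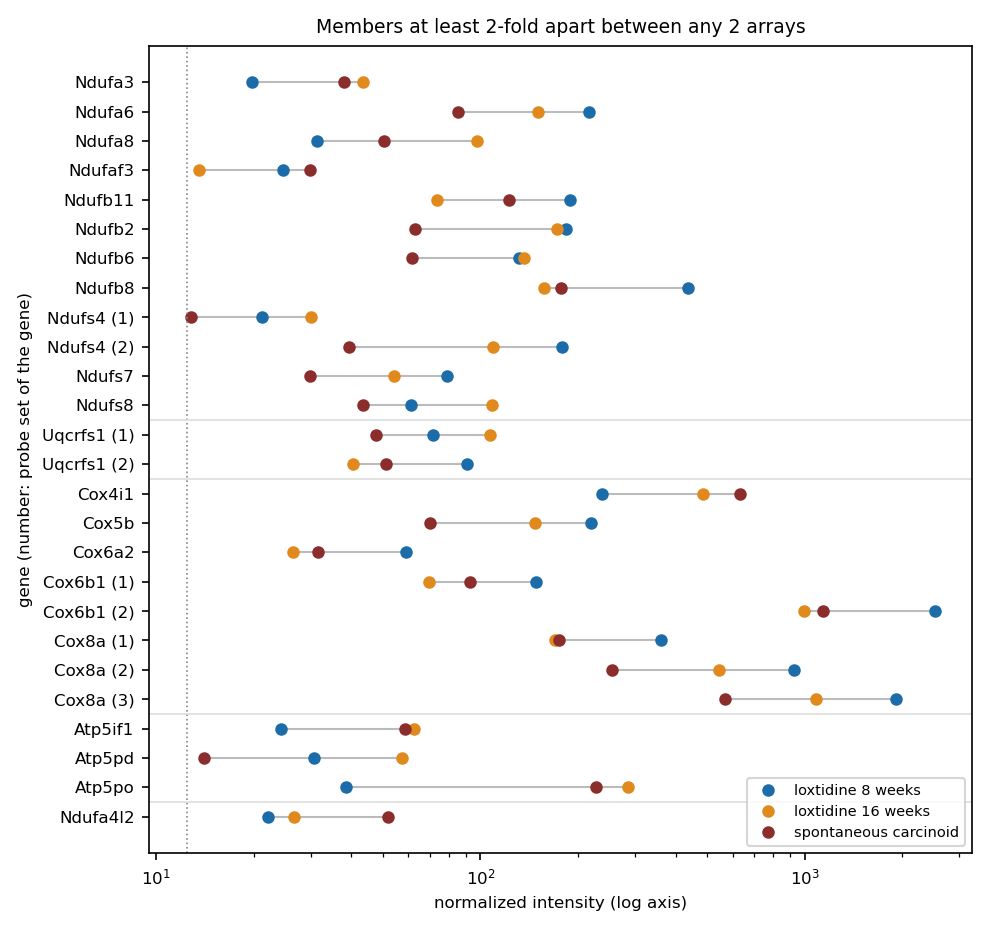
Normalized intensity (log axis) of the 26 member probe sets, from 21 genes, that reached the floor on all 3 arrays and differed at least 2-fold between any 2 of them. Each row is 1 probe set with 1 point per array, grey rules separate the complexes and the dotted line is the floor of 12.4. In the complex I rows the carcinoid point is the lowest for Ndufa6, Ndufb2, Ndufb6, Ndufs4, Ndufs7 and Ndufs8, and in the Cox8a and Cox6b1 rows the 8-week point is the highest.

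Sdha, the flavoprotein of succinate dehydrogenase, stands for complex II. It read 5.28, 2.27 and 35.4, above the floor only on the carcinoid array, where it was at least 2.86-fold higher than on either loxtidine array. This is 1 probe set on 1 array, and the other subunits of the enzyme are not analysed here.

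Complex III passes electrons from ubiquinol to cytochrome c. Its brightest member, cytochrome c1 (Cyc1), read 188, 203 and 171 and so varied by at most 1.19-fold. Uqcrfs1, the Rieske iron-sulfur protein, had 3 probe sets that disagreed. The brightest by 8-week value read 90.7, 40.4 and 51.1, highest at 8 weeks and 2.25-fold lower at 16 weeks. A pair from another sequence read 71.5, 107 and 47.7, highest at 16 weeks, and 33.5, 26.7 and 50.6, highest in the carcinoid, and they moved in opposite directions between those arrays (2.24-fold lower and 1.9-fold higher in the carcinoid). No array was thus highest for Uqcrfs1 by all of its probe sets. The small subunit Uqcr11 read 106, 70.1 and 74.8 on the first and 21.5, 27.6 and 16.8 on the second, both lower in the carcinoid than at 8 weeks, with log2 differences of -0.50 and -0.36. Uqcrc2, a core subunit, was 1.39-fold lower at 16 weeks and 1.32-fold lower in the carcinoid than at 8 weeks.

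Complex IV, cytochrome c oxidase, reduces oxygen to water. Its Cox8a subunit gave the brightest member probe set of all, and its 4 probe sets, from 3 sequences, moved together. The brightest read 4026, 2517 and 2142, 1.6-fold lower at 16 weeks and 1.88-fold lower in the carcinoid than at 8 weeks. A pair from a second sequence read 1920.0, 1087 and 567 on the first and 930.3, 545 and 255 on the second, with the carcinoid 3.39-fold lower and 3.65-fold lower than 8 weeks. The last read 361, 170.0 and 174, 2.12-fold lower at 16 weeks and 2.07-fold lower in the carcinoid. All 4 were highest at 8 weeks, and 3 were at least 2-fold lower in the carcinoid. Between the carcinoid and 16 weeks, 3 of 4 were lower and the last was 1.03-fold higher.

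As deposited, the same Cox8a probe sets read 3216, 2922 and 2487 on the brightest, 1417, 1192 and 755 and then 548, 560.1 and 325 on the pair, and 234, 187 and 214 on the last. The carcinoid value stayed below the 8-week value on all 4, and the 16-week value on 3. Cox6b1, which lies at the interface of the complex IV dimer, was also highest at 8 weeks on both of its probe sets. They read 2517, 997 and 1140.1 on the first and 148, 69.4 and 92.8 on the second, lowest at 16 weeks, 2.53-fold lower and 2.14-fold lower than at 8 weeks, and 2.21-fold lower and 1.6-fold lower in the carcinoid. As deposited they read 2032, 1034 and 1492 on the first and 102, 73.8 and 112 on the second, so for the dimmer of the pair the carcinoid lay above 8 weeks on that scale.

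Cox8a and Cox6b1 were set beside the 61 probe sets with a mean normalized intensity of at least 500 and measured in each comparison. Their median log2 difference was 0.09 for 16 against 8 weeks and 0.15 for carcinoid against 8 weeks. Quantile normalization gives the arrays the same distribution, which holds such a median near 0. The 4 members among these 61 had -0.80 and -1.45. As deposited, the medians were 0.67 and 0.95 for the 61 and -0.19 and -0.60 for the 4 members. The 9 bacterial hybridisation controls, which are added to every sample, stood at -0.82 and -1.35 after normalization and at -0.17 and -0.55 as deposited. Their part in the Cox8a and Cox6b1 differences was not tested.

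The members' weight in the total signal moved with these genes. All members together made up 4.97%, 3.52% and 3.12% of the summed deposited intensity of the arrays. Cox8a alone gave 2.18%, 1.30% and 0.949%, and Cox6b1 0.860%, 0.296% and 0.403%. Without both genes the members' share was 1.93%, 1.92% and 1.77%. Most of the drop in share after 8 weeks was thus in Cox8a and Cox6b1. The summed deposited intensity of all members did not drop below 8 weeks, at 12336, 13176 and 12433. That of Cox8a and Cox6b1 was 7550, 5969 and 5385, and that of the other members 4786, 7208 and 7048.

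Other subunits of complex IV did not all follow Cox8a. Cox4i1, which assembles early in the complex, had 3 probe sets that disagreed. Its bright probe sets read 455, 454 and 362, with at most 1.26-fold between arrays, and 238, 486 and 631, 2.05-fold higher at 16 weeks and 2.66-fold higher in the carcinoid than at 8 weeks. The dim one, at 17.6, 16.7 and 18.1, hardly differed.

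Cox5b split in the same way. It read 219, 147 and 69.9 on its brighter probe set, 3.14-fold lower in the carcinoid than at 8 weeks and 2.11-fold lower than at 16 weeks. Its other probe set read 63.8, 84.6 and 125, 1.96-fold higher in the carcinoid than at 8 weeks. No direction can be given for Cox4i1 or Cox5b as genes.

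Cox6a1, the Cox6a form of most tissues, was lower in the carcinoid than at 8 weeks on each of its 3 probe sets. These read 389.7, 261 and 276 on the brightest, 157, 106 and 86.8 on the next and 34.2, 40.1 and 25.8 on the dimmest, and the largest of these differences was 1.81-fold lower. Cox6c read 31.4, 44.6 and 22.6 on its brighter probe set, 1.97-fold lower in the carcinoid than at 16 weeks, and 14.5, 6.41 and 17.1 on the other, which fell under the floor at 16 weeks. The pseudogene entry Cox6c-ps1 passed the floor only at 8 weeks, at 14.7, 3.03 and 2.45. Cox7b read 189, 266 and 151, highest at 16 weeks and within 2-fold throughout.

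Cox7a2l, known for holding respiratory supercomplexes together, read 6.93, 36.4 and 9.44, above the floor only at 16 weeks and at least 2.94-fold higher there than at 8 weeks. Its second probe set stayed below the floor. Cox5a, by its singly named probe set, varied by at most 1.13-fold.

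Some complex IV subunits have forms typical of other tissues, Cox6a2 and Cox8b of striated muscle and Cox4i2 of lung. Cox6a2 read 58.8, 26.4 and 31.7, 2.22-fold lower at 16 weeks than at 8 weeks, and 10.3, 17.7 and 38.3 on a second probe set, at least 3.09-fold higher in the carcinoid than at 8 weeks and 2.17-fold higher than at 16 weeks. The last Cox6a2 probe set stayed below the floor on every array. Cox8b reached the floor only in the carcinoid and on 1 of its probe sets, at 5.79, 5.66 and 13.6. Cox4i2 read 94.1, 57.1 and 95.9, lowest at 16 weeks.

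Muscle markers were set beside these forms. Of the smooth and striated muscle list, 7 of the 10 genes with a singly named probe set reached the floor on at least 1 array, and its 18 probe sets summed to 241, 210.0 and 323. Its median log2 difference was -0.24 over 4 probe sets for carcinoid against 8 weeks, which turned to 0.34 as deposited, and 0.66 over 8 for carcinoid against 16 weeks. The cardiac troponin Tnni3 read 28.0, 20.1 and 65.4 on its first probe set and 55.2, 30.0 and 50.9 on its second, 2.33-fold higher and 1.08-fold lower in the carcinoid than at 8 weeks. Muscle creatine kinase, Ckm, read 48.2, 26.4 and 14.6, 3.29-fold lower in the carcinoid, and the brightest probe set of the cardiac myosin Myh6 read 45.5, 19.3 and 35.2. The skeletal actin Acta1 read 1.66, 1.64 and 2.17, below the floor on every array. These striated muscle markers therefore did not share a direction. Of the smooth muscle markers, Acta2 read 4.55, 21.1 and 32.2 on its brightest probe set, and Cnn1 7.30, 26.2 and 32.4. Myh11 read 3.16, 16.6 and 19.4 on its brightest probe set. Each of these was under the floor only at 8 weeks, while Tagln, at 13.9, 10.3 and 11.25, was above it only there. The part of muscle markers in the Cox6a2 and Cox8b values was not tested.

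ATP synthase had the largest share of members above their 8-week value among the complexes with more than 1 probe set. This was 8 of 11 (72.7%) at 16 weeks and 7 of 11 (63.6%) in the carcinoid, against 49.2% and 48.1% of all probe sets. Its ring subunits Atp5mc1 and Atp5mc2, on shared probe sets outside the rule, were 1.70-fold and 1.74-fold lower in the carcinoid than at 8 weeks. In the catalytic head of ATP synthase, the alpha subunit Atp5f1a read 73.1, 66.2 and 69.1, 1.1-fold lower at 16 weeks than at 8 weeks. The beta subunit Atp5f1b read 94.9, 123 and 132, up to 1.39-fold higher. Atp5f1d, of the central stalk, was higher than at 8 weeks on both of its probe sets, made from 1 sequence. They read 80.9, 142 and 154 on the first and 73.2, 79.3 and 91.6 on the second, 1.9-fold higher and 1.25-fold higher in the carcinoid. Atp5f1c, the rotor shaft, was 1.37-fold higher at 16 weeks and 1.27-fold higher in the carcinoid. Atp5f1e went the other way on its brighter probe set, 72.8, 45.5 and 52.4, and its other probe set, 11.2, 11.7 and 13.9, passed the floor only in the carcinoid.

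The peripheral stalk holds the head still while the rotor turns. Its Atp5po subunit, which tops the stalk, gave the largest measured difference of any member, and also the largest disagreement. It read 38.6, 285 and 227 on 1 probe set, 7.39-fold higher at 16 weeks and 5.88-fold higher in the carcinoid than at 8 weeks. The other, made from the same sequence, read 245, 126 and 134, 1.95-fold lower and 1.84-fold lower. The 16-week and carcinoid arrays differed by at most 1.26-fold on either, so the probe sets part at the 8-week array, the one with the highest 3' to 5' ratios. Whether those ratios bear on it was not tested.

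Atp5pd, another stalk subunit, had the largest difference between the carcinoid and 16 weeks among members measured on both. Its probe set read 30.6, 57.4 and 14.1, 4.07-fold lower in the carcinoid than at 16 weeks and 2.17-fold lower than at 8 weeks. The carcinoid value lies just above the floor, and with the floor at 30.0 the log2 difference from 8 weeks shrank from -1.12 to -0.03, as a bound. Atp5pf read 2.05, 25.4 and 34.3 on its brighter probe set, at least 2.05-fold higher at 16 weeks and at least 2.77-fold higher in the carcinoid than at 8 weeks. Its second probe set, from the same sequence, read 12.2, 8.58 and 13.8, near the floor on each array. Atp5pb, the stalk's long membrane-anchored subunit, read 24.1, 29.0 and 36.5, 1.51-fold higher in the carcinoid than at 8 weeks.

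Atp5if1 encodes the inhibitor that stops ATP synthase from running backwards and consuming ATP. Its brightest probe set read 24.3, 62.6 and 58.4, 2.58-fold higher at 16 weeks and 2.41-fold higher in the carcinoid than at 8 weeks. A second read 2.16, 45.2 and 21.8, at least 3.65-fold higher at 16 weeks and at least 1.76-fold higher in the carcinoid. The next read 3.54, 4.04 and 13.0, just above the floor in the carcinoid alone, and the last stayed below it. On the first and second of these the 8-week array was lowest, while the next was under the floor at both 8 and 16 weeks. All 3 are of the kind that can be shared by a family of similar sequences, so they may not measure Atp5if1 alone.

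Ndufa4 read 243, 137 and 128, highest at 8 weeks and 1.91-fold lower in the carcinoid. Its relative Ndufa4l2, known as a target of the hypoxia response, had 5 probe sets of which 4 reached the floor. They read 22.1, 26.7 and 51.9, then 11.9, 52.9 and 44.7, both lowest at 8 weeks, and 53.7, 5.56 and 11.2, then 26.9, 2.27 and 9.08, both above the floor only at 8 weeks. The first was 2.35-fold higher in the carcinoid than at 8 weeks and the second at least 3.61-fold higher, while the pair with signal at 8 weeks was at least 4.34-fold lower, then at least 2.17-fold lower. Of these, 3 are of the kind that a family can share. With 2 probe sets in each direction, no direction can be given for this gene.

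Brightness and the rc_ prefix of the probe set identifier moved with the members' shift. For carcinoid against 8 weeks, members with a mean normalized intensity under 50 had a median of -0.12 over 23 probe sets, those from 50 to 150 had -0.48 over 27, and those of 150 or more had -0.88 over 17, 6 of them at least 2-fold lower. All probe sets in the same bands had -0.05, -0.01 and -0.02, medians that quantile normalization holds near 0. Leaving Cox8a and Cox6b1 out of the brightest band gave -0.41 over 12. The members whose probe set identifier begins with rc_, made from expressed sequence tags, had a median of -0.51 over 40 probe sets, and the others -0.12 over 27. Among all probe sets the same split gave 0.00 and -0.08. The split used the prefix alone, and some of the others may also come from such tags. In complex I this split was -0.63 over 21 against -0.28 over 6, and in complex IV -0.77 over 10 against -0.44 over 10. Relative to all probe sets, the members without rc_ lay at -0.08 after quantile normalization but at 0.03 with scaling by the median and 0.01 as deposited, whereas those with rc_ lay at -0.46, -0.41 and -0.33. For carcinoid against 16 weeks, complex I probe sets with rc_ lay at -0.62, -0.55 and -0.55 from the median of all under those scalings. Complex I probe sets without rc_ lay at -0.06, 0.02 and 0.03 there. Whether brightness or probe design sets part of the members' shift was not tested.

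Markers of the parietal cell were also followed, since that cell is rich in mitochondria. Of 9 genes on the list, 7 had a singly named probe set and 6 reached the floor on at least 1 array, with 13 probe sets that summed to 3052, 3224 and 2515. The proton pump subunit Atp4a read 966, 1449 and 903 on its brightest probe set. Its others read 4.18, 95.4 and 55.0, at least 7.71-fold higher at 16 weeks and at least 4.45-fold higher in the carcinoid than at 8 weeks, and 4.67, 30.2 and 15.6, at least 2.44-fold higher and at least 1.26-fold higher. The other pump subunit, Atp4b, read 239.8, 143 and 117 on the first and 99.2, 156 and 126 on the second. For carcinoid against 8 weeks the list's median log2 difference was -0.10 over 7 probe sets, 2 of them at least 2-fold lower. That sign turned with the scaling, to 0.68 after scaling by the median and 1.13 as deposited, and the deposited sums were 1907, 3461 and 3248. Intrinsic factor, Cblif, read 5.40, 73.7 and 64.3 on its dimmer probe set, at least 5.2-fold higher in the carcinoid than at 8 weeks, and 452, 512 and 386 on the other, 1.17-fold lower. Car2 read 149, 211 and 284 on its brighter probe set, 1.9-fold higher in the carcinoid than at 8 weeks. Slc4a2 read 859, 275 and 254 on its brighter probe set, 3.38-fold lower, and 255, 246 and 290 on the other, 1.13-fold higher. For carcinoid against 16 weeks the list's median was -0.29 over 11, with none past 2-fold. ECL cell markers had a median of -1.08 for carcinoid against 8 weeks over 4 probe sets, 3 at least 2-fold lower, and their 10 probe sets summed to 209, 236 and 127. The part of either cell type in the members' values was not tested.

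Sums of the remaining marker lists differed between arrays in various directions. Chief cell markers (3 probe sets) summed to 4717, 4598 and 3748, erythroid markers (2) to 78.1, 78.8 and 98.7, and leukocyte markers (8) to 113, 42.2 and 42.4. Mucous cell markers (6) summed to 1324, 1242 and 1688, most of it from the trefoil peptide Tff1, at 1124, 830.5 and 1213. The surface mucin Muc5ac differed far more than that sum. It read 15.8, 168 and 212 on one probe set, 10.6-fold higher at 16 weeks and 13.4-fold higher in the carcinoid than at 8 weeks, and 12.4, 79.2 and 57.7 on the other, 6.37-fold higher and 4.64-fold higher. The part of mucous cells in the members' values was not tested. In the leukocyte list Cd74 read 35.3, 1.29 and 1.42 on its brightest probe set, above the floor only at 8 weeks. The common antigen Ptprc read 16.0, 13.0 and 6.61 on its brightest probe set. Its others, at 8.40, 1.72 and 12.2 and at 0.44, 0.48 and 9.44, were highest in the carcinoid but under the floor on every array.

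Genes of the wider mitochondrial pathways were set beside the members, from 4 lists. Of the tricarboxylic acid cycle and pyruvate dehydrogenase, 16 of 25 genes were on the array as singly named probe sets. Over 13 probe sets measured for carcinoid against 8 weeks, 2 were at least 2-fold higher and 3 at least 2-fold lower, with a median of -0.09. Isocitrate dehydrogenase Idh2 had probe sets of opposite sign, at 114, 376 and 266 on the first and 264, 108 and 123 on the second. Pyruvate dehydrogenase's Dlat read 222, 176 and 97.4 on its brightest probe set, 2.27-fold lower in the carcinoid than at 8 weeks, and Dlst, of the oxoglutarate dehydrogenase complex, read 41.7, 7.04 and 17.5, 2.38-fold lower. Malate dehydrogenase Mdh2 was 2.03-fold higher in the carcinoid than at 8 weeks, at 43.2, 70.6 and 87.4, and 1.41-fold higher on its other probe set, at 88.1, 76.4 and 124.

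Mitochondrial carriers, channels and uncoupling proteins, with 14 of 17 genes on the array, had a median of -0.25 over 12 probe sets for carcinoid against 8 weeks, 2 at least 2-fold higher and 2 lower. The citrate carrier Slc25a1 was lowest at 16 weeks, at 80.4, 17.4 and 80.4. The ADP/ATP carrier Slc25a4 read 40.2, 46.4 and 13.0, 3.09-fold lower in the carcinoid than at 8 weeks. Uncoupling protein Ucp2 was lowest at 8 weeks on 1 probe set, 82.8, 294 and 192, and highest there on the other, 132, 65.6 and 101. Cpt1a, which admits long-chain fatty acids to the mitochondrion, read 34.6, 37.8 and 94.5, 2.73-fold higher in the carcinoid than at 8 weeks.

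Biogenesis, import and oxidant defence genes, 14 of 32 on the array, had a median of -0.11 over 16 probe sets for carcinoid against 8 weeks, with 2 at least 2-fold higher and 1 lower. The chaperonin Hspd1 read 1030.1, 381 and 317 on its brighter probe set, 3.25-fold lower in the carcinoid, and 108, 106 and 105 on the other, 1.03-fold lower. The import receptor Tomm20 had probe sets that disagreed, at 16.4, 37.5 and 52.3, 3.18-fold higher in the carcinoid than at 8 weeks, and at 23.2, 6.62 and 17.4, 1.33-fold lower. The import motor adaptor Timm44 read 39.7, 16.7 and 22.9, and the chaperone Hspa9 read 19.0, 44.0 and 25.3 on its brightest probe set.

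Fatty acid beta oxidation genes, 15 of 16 on the array, had a median of 0.06 over 15 probe sets for carcinoid against 8 weeks, with 2 at least 2-fold higher and 1 lower. Hadha, of the trifunctional protein, read 176, 102 and 53.4, 3.3-fold lower in the carcinoid than at 8 weeks, and 80.7, 113 and 50.3 on a probe set from the same sequence. A further Hadha probe set read 36.7, 29.3 and 35.8, 1.03-fold lower. Etfdh, which hands electrons from fatty acid oxidation to ubiquinone, read 41.8, 13.8 and 5.58, 3.04-fold lower at 16 weeks. Acaa2 was lowest at 8 weeks, at 14.7, 35.7 and 29.8. Ivd read 13.7, 29.7 and 32.1 on one probe set and 29.0, 27.9 and 30.3 on another from the same sequence, so they disagreed on the 8-week array. For 16 against 8 weeks the medians of the 4 lists were 0.02, 0.04, -0.28 and -0.06, in the order given. With scaling by the median, their values for carcinoid against 8 weeks were 0.06, 0.10, 0.15 and 0.09, so the sign turned for all but the last, while the members' own median was -0.22. All probe sets had 0.08 under that scaling, so the lists lay near that level and the members below it. As deposited the lists had 0.51, 0.54, 0.60 and 0.44, where all probe sets had 0.45 and the members 0.23.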

How the data were processed

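The deposited table holds 1 linear intensity per probe set and array, as made by the authors. Neither its algorithm nor its scaling is given in the sources used here, no detection calls were used, and an intensity gives no depth. Every column of values belonged to a sample (0 without). Gene symbols came from the platform annotation supplied with the table. Of 8740 non-control probe sets 308 had several symbols and 1426 none, and these were not named. The 2% trimmed means (17.8, 25.1 and 27.2) differed by over 5%, which called for quantile normalization of all 8799 probe sets, including 59 controls. Values under the floor (the pooled 50th percentile, 12.4) were raised to it before log2. "Lower" and "higher" always name the first array of a comparison against the second. The spread between probe sets is the root mean square difference between a pair of probe sets of 1 gene, divided by the square root of 2.

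The members and the 4 pathway and 7 marker lists were chosen with earlier results of these data known. Values are printed for each member probe set that reached the floor and was at least 2-fold apart, the brightest of its complex or 1 of several of its gene, and for up to 4 genes per pathway list with the largest measured difference. Values for a few single-probe-set members, and the marker genes, were added to these after they were seen. There were 8 alternatives: no normalization, median scaling, a floor at the 25th or 75th percentile, no filter with the floor as pseudocount, 1 probe set per gene, the median per gene, and rc_ probe sets only. Intensity bands, the split by the rc_ prefix, and values without Cox8a and Cox6b1 were added after the data were seen. The steps were tested on simulated data. Python 3.11.15, numpy 2.4.6, pandas 2.3.3 and matplotlib 3.10.9 were used. No sequence tables were used here, so no sequences are printed.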

Additional observations from a re-analysis of the deposited data

How the results depend on the processing

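With 1 array per group, no result has a test, and the counts of members at least 2-fold apart moved with the processing. Taking 16 against 8 weeks first, then carcinoid against 8 weeks and then against 16 weeks, the counts were 5, 4 and 3 higher and 7, 12 and 10 lower. The share of all probe sets (or genes) past 2-fold moved with them and is given beside each. Counts of higher members were 13, 14 and 5 with the values as deposited (all, 19.7%, 25.4% and 9.53%), 8, 8 and 8 with the floor at the 25th percentile, 4.19 (18.2%, 18.3% and 14.2%), and 9, 10 and 1 without a filter (8.04%, 9.02% and 5.24%). They were 3, 2 and 0 with the floor at the 75th percentile, 30.0 (7.93%, 9.53% and 2.71%), 3, 2 and 1 with the median per gene (9.65%, 9.89% and 5.94%), and 2, 0 and 1 with rc_ probe sets only (9.65%, 10.9% and 6.83%). With 1 probe set per gene the higher count for carcinoid against 16 weeks was 1 (6.74%). Counts of lower members for 16 against 8 weeks were 0 as deposited (3.97%), 4 with scaling by the median (7.43%), 4 with 1 probe set per gene (10.1%) and 3 with the median per gene (8.39%). For carcinoid against 8 weeks they were 2 as deposited (3.63%), 7 with scaling by the median (8.46%) and 6 with the median per gene (9.45%). For carcinoid against 16 weeks they were 6 with 1 probe set per gene (5.62%) and 3 with the median per gene (4.92%). The other 20 counts stayed within 1.5 times. No replicate error exists by which to judge a shift of the members' median log2 difference. It ranged from -0.51 to 0.23 over 8 alternatives for carcinoid against 8 weeks, from -0.25 to 0.52 for 16 against 8 weeks and from -0.25 to 0.01 for carcinoid against 16 weeks, and it changed sign in 6 of these 24 values. As deposited it went from -0.45 to 0.23 for carcinoid against 8 weeks, from -0.04 to 0.52 for 16 against 8 weeks and from -0.10 to 0.01 for carcinoid against 16 weeks. For 16 against 8 weeks it was also above 0 without a filter (0.03), with the lower floor (0.01) and after median scaling (0.16). Fewer probe sets enter with the higher floor, 1 value per gene or rc_ probe sets only. For the other alternatives the cause was not tested. None of the members at least 2-fold apart changed sign as deposited or after median scaling. The floor alternatives only raise low values, so they could not have turned a sign. As deposited, 5 of 12, 5 of 16 and 11 of 13 of them still differed at least 2-fold. No paired analysis was possible because each group had 1 array. Signal near the floor limits the dimmer members, and the number of arrays limits every value.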

Other observations

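Some genes of the same machinery lay outside the rule, because their symbols differ in form or their probe sets carry several symbols. Cytochrome c, Cycs, which carries electrons between complexes III and IV, has a probe set shared with related entries that read 13.1, 21.9 and 28.3 (8 weeks, 16 weeks, carcinoid), 2.16-fold higher in the carcinoid than at 8 weeks. Ndufs5, an accessory subunit of complex I, shared its probe set with a pseudogene entry and read 68.4, 48.9 and 23.1, so it was 2.96-fold lower in the carcinoid than at 8 weeks and 2.11-fold lower than at 16 weeks. Ndufb4 read 110.7, 116.2 and 115.6, within 1.05-fold. The ATP synthase ring subunits Atp5mc1 and Atp5mc2, both on shared probe sets, read 497.5, 489.7 and 293 and 314, 157 and 180.1, each lower in the carcinoid than at 8 weeks by 1.70-fold and 1.74-fold. In complex IV, a shared probe set for Cox5a read 903, 880.4 and 729, and that for Cox7a2 read 66.5, 74.9 and 56.8. These probe sets cannot assign their signal to 1 gene.

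Mitochondrially encoded subunits of complex IV gave little signal on these arrays. The probe sets of COX1 and COX2 lay below the floor of 12.4 on every array, and that of COX3 read 21.5, 20.7 and 4.92, at least 1.73-fold lower in the carcinoid than at 8 weeks.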
